A study of Mus musculus with 6 samples.

Results

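The levels of 10 genes of prostaglandin metabolism and fatty acid oxidation were examined in Neuro2A, an established mouse neuroblastoma cell line that the labels describe as neuroblasts. They are the phospholipase gene Pla2g4a, the cyclooxygenase genes Ptgs1 and Ptgs2, the prostaglandin synthase genes Ptges, Ptges2, Ptges3 and Ptgds, the breakdown genes Hpgd and Ptgr1, and the fatty acid hydroxylase gene Cyp4b1. All 10 were found by name among 55385 genes. The set was chosen by function and also by the measured rises of Ptgs1 and Cyp4b1 in these libraries, so the difference between the groups is a description for those 2 genes and carries no test. Cells had received 100 nM of an siRNA named si-circCpsf6, against the circular RNA circCpsf6 (n = 3), or 100 nM of the comparison siRNA si-NC (n = 3), both with the same lipid reagent. All 6 libraries share the cell line and the transfection, and the labels name a single siRNA against the circle and do not say whether replicates were separate cultures. The p-values below therefore reflect only how much these libraries vary, and that variation may be technical.

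Prostaglandins are lipid signals that cells make on demand. A phospholipase frees arachidonic acid from membranes, a cyclooxygenase turns it into the unstable prostaglandin H2, and terminal synthases convert that into prostaglandin E2, prostaglandin D2, prostacyclin or thromboxane, which act on receptors at the cell surface until a dehydrogenase and reductases inactivate them. Cyclooxygenase 1, made from Ptgs1, is known as the constitutive form, and cyclooxygenase 2, made from Ptgs2, as the form that stimuli induce, although neurons of the brain also make the latter at rest. Cyp4b1 belongs to the cytochrome P450 family 4, whose enzymes oxidise fatty acids and foreign compounds near the end of the chain and take electrons from the reductase encoded by Por.

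Expression was given as FPKM, the fragments of a gene scaled by transcript length and library size, so that levels of different genes can be set side by side. Between 12671 and 13080 genes reached 1 FPKM in a library. Correlations of log2(FPKM + 1) across tested genes were 0.936 to 0.971 within groups and 0.919 to 0.949 between them. Cpsf6, the host gene of the circle, read 14.09, 14.5 and 15.2 FPKM in si-NC, against 10.65, 15.06 and 14.5 FPKM in si-circCpsf6, but a value per gene does not separate a circle from its linear mRNA and so checks no knockdown. All 12 sympathoadrenal and neuroblastoma markers were present, with Tubb3, a neuronal tubulin, the most abundant. They were not level between the groups: their summed FPKM was 1076 to 1311 in si-NC and 825 to 897 in si-circCpsf6, and Chga, a granule protein gene, was called lower. The log2 fold change was below 0 for 8 of the 12 and above 0 for 4, among them Mycn, at 12.7 and 22.3 FPKM on average with the groups apart (limma adjusted p = 0.180). Markers of macrophages and microglia summed to at most 2.01 FPKM in any library, with Cd68 the highest. Those of astrocytes summed to at most 1.67 FPKM, with Aldh1l1 the highest and Aqp4 and Slc1a2 at 0. Those of platelets and mast cells summed to at most 2.46 FPKM, with Itga2b the highest and Cpa3, Mcpt4 and Ppbp at 0.

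The 10 genes spanned the range from abundant to not detected, and their order by level was much the same in each group. Ptges3 was by far the highest, at a mean of 98.8 FPKM in si-NC, against 103 FPKM in si-circCpsf6. In si-NC, Ptgs1 (8.93 FPKM), Cyp4b1 (5.76 FPKM) and Ptges2 (4.13 FPKM) followed. Over their libraries Ptgs1 overlapped Cyp4b1 and Cyp4b1 overlapped Ptges2, while Ptges2 lay above Ptgr1. In si-circCpsf6, Cyp4b1 (36.3 FPKM) and Ptgs1 (34.04 FPKM) overlapped each other and stood clear of all genes below them. Ptgr1, Ptgds and Ptges came lower in each group, and Ptgs2, Pla2g4a and Hpgd were at or near 0. Of the 10, 6 averaged 1 FPKM or more across all libraries and entered the test, Ptgds as the lowest of them at 1.10 FPKM. Ptgds did so through si-NC alone, since its si-circCpsf6 mean was 0.603 FPKM. Ptges, at 0.298 FPKM, was the highest of the 4 left out.

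**Figure D1:**
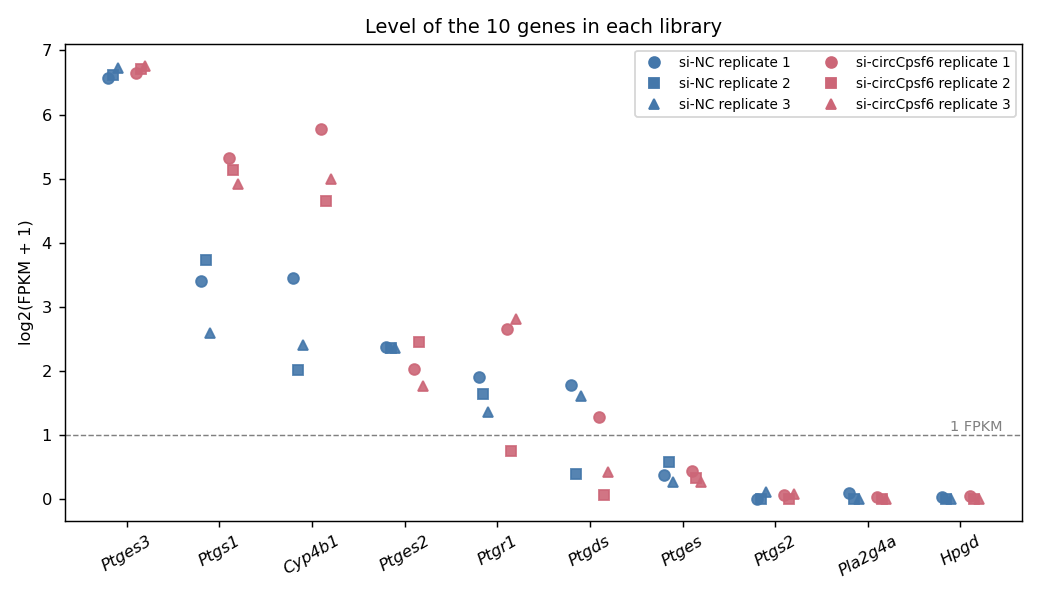
Level of each of the 10 genes in each library, as log2(FPKM + 1) on the vertical axis, with blue symbols for si-NC, red for si-circCpsf6 and a symbol shape per replicate number. Genes are ordered by mean level, from Ptges3 near 100 FPKM to Hpgd near 0, and only for Ptgs1 and Cyp4b1 do all red points lie above all blue points. Both were chosen also for their rises.

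The entry step by the classical phospholipase was not seen. Pla2g4a (cytosolic phospholipase A2 alpha, which releases arachidonic acid when calcium rises) read 0.07 FPKM in si-NC replicate 1, 0.02 FPKM in si-circCpsf6 replicate 1 and 0 in the other 4 libraries. The table is rounded to 2 decimals and gives no counts, so these values have an unknown counting error and allow no fold. Other genes of arachidonate release, recapture or synthesis were expressed, with Elovl5, Fads1 and Fads2 on the list for synthesis. Of 23 on that list, 15 were tested. None was called higher or lower by limma, 6 had an unadjusted p under 0.05, all of them higher in si-circCpsf6 (beside 10.2% of all tested genes as higher and 20.3% in either direction), and the authors' deposited table calls 1 lower, Mgll, which stayed under 1 FPKM. The median log2 fold change of the 15 was 0.40, beside -0.02 over all 12974 tested genes.

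Among those genes, Pla2g12a, a secreted phospholipase A2, read 3.5, 2.34 and 3.42 FPKM in si-NC, against 4.66, 6.43 and 5.17 FPKM in si-circCpsf6 (log2 fold change 0.66 ± 0.18, SE; limma adjusted p = 0.105). Elovl5, which elongates polyunsaturated fatty acids, read 43.8 ± 8.70 and 64.2 ± 5.14 FPKM in the si-NC and the si-circCpsf6 libraries (SD, n = 3; limma adjusted p = 0.135). Mboat7, which returns arachidonate to phosphatidylinositol, read 5.52 ± 0.137 and 8.07 ± 1.51 FPKM (limma adjusted p = 0.149). The groups did not overlap for any of these 3 genes, which were named for the smallest p of the list. None passed the test. Of the 15 tested genes of the list, 7 had groups apart as higher, beside 12.8% of all tested genes.

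Ptgs1 was the cyclooxygenase that these cells expressed. Ptgs1 (ENSMUSG00000047250, chromosome 2, 36230426 to 36252272, plus strand, GRCm38) read 9.55, 12.22 and 5.03 FPKM in si-NC replicates 1 to 3 and 38.96, 34.05 and 29.11 FPKM in si-circCpsf6. Each si-circCpsf6 library was above every si-NC library, and the nearest libraries of the groups were 12.22 and 29.11 FPKM. Group means were 8.93 ± 3.63 and 34.04 ± 4.93 FPKM (SD, n = 3), a ratio of 3.81, and the log2 fold change was 1.88 ± 0.28 (SE, on log2(FPKM + 1)). It was the sixteenth most positive of all tested genes.

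Ptgs2, which encodes the inducible form, stayed near 0 in each group. Ptgs2 (ENSMUSG00000032487, chromosome 1, 150100031 to 150108227, plus strand) read 0, 0 and 0.08 FPKM in si-NC, against 0.04, 0 and 0.06 FPKM in si-circCpsf6, and its antisense genes Ptgs2os and Ptgs2os2 were listed at 0 in all libraries. With an unknown counting error at these levels, no fold is given.

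Of the 6 tested genes, Ptgs1 and Cyp4b1 passed the limma test over all genes at an adjusted p under 0.05, where 1.69% of all tested genes passed (0.902% higher and 0.786% lower in si-circCpsf6). They were also the 2 whose groups did not overlap, beside 26.9% of all tested genes (12.8% higher and 14% lower). Since they were chosen for these rises, nothing is read from either count. The calls are also tied to the full set of libraries: in none of 6 fits that each left out 1 library was either gene called. Over those fits the log2 fold change of Ptgs1 ranged from 1.56 (without si-NC replicate 3) to 2.13 (without si-NC replicate 2), and that of Cyp4b1 from 2.20 (without si-circCpsf6 replicate 1) to 2.93 (without si-NC replicate 1).

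**Figure D2:**
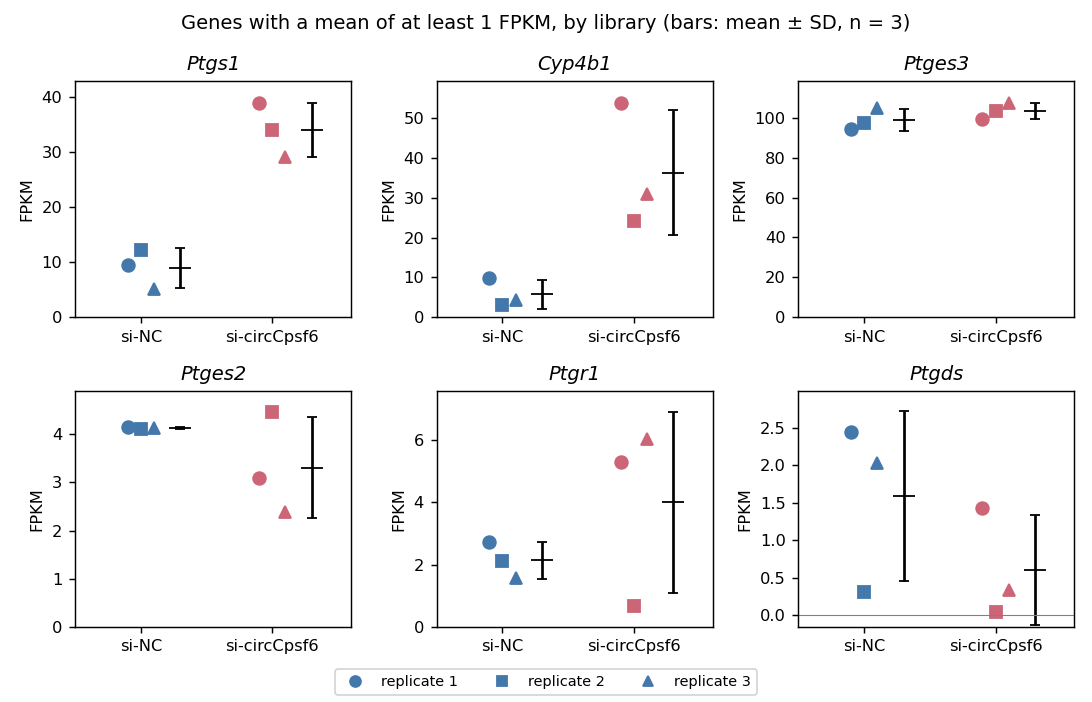
FPKM of the 6 tested genes in each library, on a linear axis per gene, with blue symbols for si-NC, red for si-circCpsf6 and bars for the mean ± SD of 3 libraries. Ptgs1 and Cyp4b1 show separate groups, Ptges3 stays between 94.39 and 107.62 FPKM, and Ptgr1 has 1 si-circCpsf6 library (0.68 FPKM) far under the other 2.

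Because Ptgs1 and Cyp4b1 differed between the groups while Ptgs2 was near 0 in both, the 250 bases before the RefSeq transcription start of these 3 genes (GRCm38.p6) are shown, in the direction of transcription. Capitals mark matches to the motifs searched. They lie at chr2:36230176-36230425 (plus strand), chr1:150099781-150100030 (plus strand) and chr4:115647722-115647971 (minus strand).
Ptgs1: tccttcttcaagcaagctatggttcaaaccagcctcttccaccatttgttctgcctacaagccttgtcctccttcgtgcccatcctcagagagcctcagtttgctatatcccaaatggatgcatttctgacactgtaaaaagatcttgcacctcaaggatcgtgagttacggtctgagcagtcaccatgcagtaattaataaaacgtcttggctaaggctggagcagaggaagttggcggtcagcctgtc
Ptgs2: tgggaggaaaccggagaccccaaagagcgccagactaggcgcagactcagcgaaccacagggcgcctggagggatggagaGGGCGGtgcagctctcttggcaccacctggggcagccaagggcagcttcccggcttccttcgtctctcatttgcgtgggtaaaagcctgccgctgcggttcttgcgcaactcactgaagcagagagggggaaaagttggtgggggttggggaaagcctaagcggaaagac
Cyp4b1: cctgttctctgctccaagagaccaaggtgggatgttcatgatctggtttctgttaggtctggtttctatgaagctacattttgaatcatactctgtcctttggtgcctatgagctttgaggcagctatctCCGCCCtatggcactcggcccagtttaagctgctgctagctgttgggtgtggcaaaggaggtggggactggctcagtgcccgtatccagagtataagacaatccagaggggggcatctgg
A set of 6 motifs was searched on both strands. The TATA box was searched as TATAAA. The GC box of Sp1-type factors was searched as GGGCGG. The CCAAT box was searched by its name, and the partial cAMP response element as TGACGT. The motif of TEAD factors was taken as GGAATG, and the core of the amino acid response element as TGATGNAA. None of the 6 was found in the Ptgs1 window. The Cyp4b1 window held 1 GC box, on the opposite strand and beginning 120 bases before the start, and the Ptgs2 window held 1, beginning 170 bases before it. A GC box stood in 32.7% of all 32851 such windows, a TATA box in 12.4%, CCAAT in 33.8%, the partial cAMP element in 6.47%, the TEAD motif in 12.6% and the amino acid response core in 3.45%. GC content was 48% for Ptgs1, 51.6% for Cyp4b1 and 61.6% for Ptgs2, beside a median of 52.4% over all windows. Of the other 7 genes, Ptges3 held 3 GC boxes, Ptges held 2 and a TEAD motif, and Ptgr1 held 2 with a CCAAT box and the amino acid response core. Ptges2 held a TEAD motif and Hpgd a GC box. Pla2g4a held a TATA box in 1 of its 2 windows, and Ptgds held none of the 6 motifs.

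Genes beside Ptgs1 did not pass the test. Of 20 listed genes within 250 kb, 6 were tested and none was called by limma or in the authors' deposited table. An unadjusted p under 0.05 was found for 2 of the 6, beside 20.3% of all tested genes. The median log2 fold change of the 6 was 0.03. Rbm18, an RNA-binding protein gene 93653 bases away, was the lowest of them at -0.60 (named after its values were seen). Gm43621, an unclassified transcript on the opposite strand, overlaps 148 exon bases of Ptgs1. It read 0.27, 0.16 and 0.13 FPKM in si-NC, against 0.85, 0.82 and 0.69 FPKM in si-circCpsf6, which was 1.31% to 2.83% of Ptgs1 in the same library. The sources used here do not say how the authors' counting treated strand, so reads of this stretch cannot be assigned to 1 of the 2 genes.

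Of the synthases that use prostaglandin H2, the one with the highest level was Ptges3. Ptges3 (chromosome 10, 128058954 to 128077272) encodes p23, a co-chaperone of Hsp90 that was also described as the cytosolic prostaglandin E synthase. It read 94.39, 97.42 and 104.72 FPKM in si-NC, against 99.28, 103.51 and 107.62 FPKM in si-circCpsf6, with overlapping groups. The log2 fold change was 0.07, with a 95% confidence interval of -0.22 to 0.35 (limma adjusted p = 0.806). Its processed pseudogene Ptges3-ps was listed at 117 to 140 FPKM, above Ptges3 itself in every library, with a log2 fold change of 0.03. Reads of the gene and of its copy may have been shared, so the level of either is uncertain. The paralog Ptges3l was far lower, at 0.6 to 1.91 FPKM.

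The Hsp90 machinery that p23 serves was expressed throughout, with all 15 genes of that list tested. None was called by limma or in the authors' deposited table. At an unadjusted p under 0.05, 1 was higher and 2 were lower, beside 20.3% of all tested genes in either direction. The median log2 fold change of the list was -0.07. Hsp90ab1, the constitutive cytosolic Hsp90, read 1633 ± 78.3 and 1172 ± 128 FPKM in the si-NC and the si-circCpsf6 libraries (SD, n = 3; limma adjusted p = 0.192). Trap1, the mitochondrial Hsp90, read 51.2 ± 0.904 and 39.2 ± 3.30 FPKM (limma adjusted p = 0.147). Pih1d1, which links Hsp90 to assembly of protein complexes, read 12.4 ± 0.905 and 17.6 ± 3.86 FPKM (limma adjusted p = 0.192).

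The membrane-bound prostaglandin E synthases were low. Ptges (chromosome 2, 30889471 to 30929863), the inducible microsomal enzyme that works with cyclooxygenase 2, read 0.29, 0.49 and 0.2 FPKM in si-NC, against 0.35, 0.26 and 0.2 FPKM in si-circCpsf6. It was under the limit of 1 FPKM in all 6 libraries, and the groups overlapped. Ptges2 (chromosome 2, 32395896 to 32405772), the second microsomal form, read 4.15, 4.11 and 4.14 FPKM in si-NC, against 3.09, 4.46 and 2.38 FPKM in si-circCpsf6. The si-NC libraries lay within 0.04 FPKM of each other, and the si-circCpsf6 libraries lay on either side of them. Its log2 fold change was -0.28, with a 95% interval of -0.73 to 0.16 (limma adjusted p = 0.460).

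Ptges2 was also the only one of the 10 with the heptamer GCAGAAT in the longest annotated 3' untranslated region (3' UTR). An earlier search of these same libraries had picked that heptamer as frequent among genes that fell, so its link with fold changes is a description. The site lies on chromosome 2 at 32404248 to 32404254 (plus strand, GRCm38). It is shown with its flanks, as DNA letters and with the heptamer in capitals.
Ptges2: gaaagctgctaGCAGAATactgccttcca
The heptamer stood in the 3' UTR of 10.2% of 10630 tested genes with at least 50 bases there. Their median log2 fold change was -0.13, beside -0.01 for genes without it. Ptgs2 held a copy in its coding sequence, and Ptgs1 and Cyp4b1 held none anywhere in the transcript searched.

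Ptgds, the lipocalin-type prostaglandin D synthase known from meninges, choroid plexus and oligodendrocytes, varied more between libraries than between groups. Ptgds (chromosome 2, 25466709 to 25470046) read 2.44, 0.31 and 2.03 FPKM in si-NC, against 1.43, 0.04 and 0.34 FPKM in si-circCpsf6. Replicate 1 was the highest and replicate 2 the lowest in each group, and the groups overlapped. The log2 fold change was -0.67, with a 95% interval of -1.70 to 0.36 (limma adjusted p = 0.444). It ranged from -1.10, with si-NC replicate 2 left out, to -0.41, with either si-NC replicate 1 or si-circCpsf6 replicate 2 left out, and was -1.52 with a pseudocount of 0.1 in place of 1.

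Within each group, the 3 collagens of the fibroblast marker list were highest in replicate 1 and lowest in replicate 2, as Ptgds was. Postn of that list shared this order, at 0.64, 0.01 and 0.11 FPKM in si-NC, against 0.27, 0 and 0.19 FPKM in si-circCpsf6. The other markers of the list did not, and Dcn was lowest in replicate 1 of each group. The 8 markers together gave sums of 11.2, 2.72 and 2.65 FPKM in si-NC, against 11.82, 5.53 and 8.9 FPKM in si-circCpsf6. Of these Col1a1, a collagen of connective tissue, read 4.53, 0.13 and 0.86 FPKM in si-NC, against 3.69, 0.16 and 1.13 FPKM in si-circCpsf6, while Pdgfrb, the highest of the list, was called higher in si-circCpsf6 (limma adjusted p = 0.0455). None of the 8 was at 0 throughout, and Lum stayed at or under 0.2 FPKM. Oligodendrocyte and Schwann cell markers gave sums of 7.82 to 11.12 FPKM in si-NC, against 6.55 to 10.23 FPKM in si-circCpsf6, with Cnp the highest. Endothelial markers summed to 2.98 to 3.61 and 1.82 to 4.32 FPKM. Of these Vwf averaged 2.13 FPKM in si-NC, against 0.69 FPKM in si-circCpsf6 (limma adjusted p = 0.0858; lower in the authors' deposited table). Tek averaged 0.167 and 0.937 FPKM, and the groups lay apart for each. Their part in the values of Ptgds or of the other genes was not tested. In such bulk libraries, a change in the number of cells of a type and a change in RNA per cell cannot be told apart.

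The synthases of prostacyclin and thromboxane and the haematopoietic prostaglandin D synthase were near 0 as well. Ptgis, the prostacyclin synthase, stayed at or under 0.31 FPKM, Hpgds, the haematopoietic prostaglandin D synthase, at or under 0.13 FPKM and Tbxas1, the thromboxane synthase, at or under 0.05 FPKM. Of 10 genes of that list in the table, 4 reductases and transferases were tested and none was called by limma or in the authors' deposited table. An unadjusted p under 0.05 was found for 1 of the 4, beside 20.3% of all tested genes. That gene was Cbr3, a carbonyl reductase, at 4.59 ± 0.644 and 6.96 ± 0.762 FPKM in the si-NC and the si-circCpsf6 libraries (SD, n = 3; limma adjusted p = 0.12). Akr1b3, an aldose reductase that can make prostaglandin F2 alpha, was at 13.69 to 15.49 and 13.07 to 18.64 FPKM.

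Inactivation was read at its second step only. Hpgd (chromosome 8, 56294585 to 56321043), the dehydrogenase that begins prostaglandin breakdown, read 0.02 FPKM in si-NC replicate 1, 0.03 FPKM in si-circCpsf6 replicate 1 and 0 in the other 4 libraries. Ptgr1 (chromosome 4, 58965439 to 58987119), which reduces the product of that step and also detoxifies aldehydes and inactivates leukotriene B4, read 2.74, 2.11 and 1.57 FPKM in si-NC. In si-circCpsf6 it read 5.3, 0.68 and 6.03 FPKM, so that 2 libraries lay above all of si-NC and replicate 2 lay under all of it. The log2 fold change was 0.44, with a 95% interval of -0.76 to 1.63 (limma adjusted p = 0.679). It was 1.10 without si-circCpsf6 replicate 2, 0.07 without replicate 3 and 0.15 without replicate 1 of that group, and the gene was called in none of these fits.

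Other reductases and transporters did not pass either. Of 5 genes of transport and breakdown in the table, 3 were tested, and none was called by limma, at an unadjusted p under 0.05 or in the authors' deposited table. Ptgr2, the related reductase, read 7.11, 7.99 and 4.61 FPKM in si-NC, against 4.72, 5.98 and 5.59 FPKM in si-circCpsf6. Slco3a1, an organic anion transporter that carries prostaglandins, read 32.15, 18.84 and 32.96 FPKM in si-NC, against 17.7, 18.1 and 22.1 FPKM in si-circCpsf6 (log2 fold change -0.48; limma adjusted p = 0.285). The prostaglandin transporter gene Slco2a1 stayed at or under 0.05 FPKM.

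Of the 9 prostanoid receptors, a single one was well expressed. Ptgir, the Gs-coupled receptor for prostacyclin, read 25.89, 22.94 and 23.15 FPKM in si-NC, against 34.85, 31.72 and 31.28 FPKM in si-circCpsf6. The groups did not overlap, and the log2 fold change of 0.43 ± 0.12 (SE) did not pass the test (limma adjusted p = 0.112). Ptger1, a receptor for prostaglandin E2, read 0.74, 1.75 and 1.06 FPKM in si-NC, against 1.38, 1.35 and 1.28 FPKM in si-circCpsf6. The other 7 had means of at most 0.247 FPKM. None of the 9 was called by limma or in the authors' deposited table. Ptgir alone of the 2 tested had an unadjusted p under 0.05, beside 20.3% of all tested genes. It was also the only one with groups apart, beside 26.9%.

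Genes known to respond to prostaglandin E2 or to cAMP were read as a further list. Of 13 such genes 11 were tested, none was called by limma or in the authors' deposited table, and 3 had an unadjusted p under 0.05, all higher in si-circCpsf6 (10.2% of all tested genes were). Sik1, a kinase gene induced by cAMP, read 6.53, 5.96 and 4.91 FPKM in si-NC, against 12.55, 11.26 and 9.3 FPKM in si-circCpsf6 (log2 fold change 0.82 ± 0.16, SE; limma adjusted p = 0.0526). It was called with median centring, with quantile normalization, with a minimum mean of 5 FPKM and among protein-coding genes alone. Crem, a transcription factor gene of the cAMP response that passed the limit of 1 FPKM through si-circCpsf6 alone, was at 0.67 to 1.02 and 1.25 to 2.13 FPKM (limma adjusted p = 0.216). Pde4d, which degrades cAMP, was at 1.02 to 1.49 and 1.49 to 2.59 FPKM (limma adjusted p = 0.217).

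Cyp4b1 had the wider relative range of the 2 genes that were higher. Cyp4b1 (ENSMUSG00000028713, chromosome 4, 115624725 to 115647723, minus strand) read 9.94, 3.05 and 4.3 FPKM in si-NC, against 53.96, 24.07 and 30.99 FPKM in si-circCpsf6. Every si-circCpsf6 library was above every si-NC library, and replicate 1 was the highest in each group. Group means were 5.76 ± 3.67 and 36.3 ± 15.6 FPKM (SD, n = 3), a ratio of 6.31, with a log2 fold change of 2.52 ± 0.41 (SE). Only 2 of all tested genes had a more positive fold change. The difference between this fold change and that of Ptgs1 was not tested.

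Copies of Cyp4b1 were low in most libraries. Its pseudogenes lie on the same chromosome: Cyp4b1-ps1 was at 0 in all libraries, and Cyp4b1-ps2 read 0.5, 0 and 0.17 FPKM in si-NC, against 0, 0.19 and 1.74 FPKM in si-circCpsf6. Around Cyp4b1, 21 genes are listed within 250 kb, 10 of them at 0 throughout, several being Cyp4a genes of the same family. Of the 21, 3 were tested, none was called by limma, at an unadjusted p under 0.05 or in the authors' deposited table, and the median log2 fold change was 0.11.

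The rest of the family was low. Of 19 other Cyp4 genes, 7 were at 0 in all libraries, 3 were tested (Cyp4f13, Cyp4f16 and Cyp4f17) and the highest mean was 4.69 FPKM, for Cyp4f16. That gene was at 3.77 to 4.51 FPKM in si-NC, against 4.45 to 5.84 FPKM in si-circCpsf6 (limma adjusted p = 0.267). Por, the reductase that supplies electrons to these enzymes, read 26.48, 27.13 and 23.32 FPKM in si-NC, against 35.39, 30.71 and 32.46 FPKM in si-circCpsf6 (log2 fold change 0.35 ± 0.13, SE; limma adjusted p = 0.182). Cyb5a, a second electron donor, read 3.28, 3.38 and 3.81 FPKM in si-NC, against 2.33, 2.14 and 2.85 FPKM in si-circCpsf6 (limma adjusted p = 0.199). The groups lay apart for Por and Cyb5a, in opposite directions, beside 26.9% of all tested genes apart in either direction. No gene of this list was called by limma. At an unadjusted p under 0.05 there was 1 in each direction, beside 20.3% of all tested genes in either direction. The authors' deposited table calls 1 higher, Cyp4f40, which stayed under 1 FPKM on average.

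Lipoxygenase and leukotriene genes, the other branch of arachidonate metabolism, were mostly under 1 FPKM. Of 13 listed, 3 were tested and none was called by limma. Gpx4, which reduces lipid hydroperoxides, read 88.7 ± 4.96 and 114 ± 14.8 FPKM in the si-NC and the si-circCpsf6 libraries (SD, n = 3; limma adjusted p = 0.229). It was the only one with an unadjusted p under 0.05, beside 20.3% of all tested genes. Lta4h, the leukotriene A4 hydrolase, was at 9.21 to 11.85 and 11.42 to 13.8 FPKM. The epoxide hydrolase gene Ephx1 was at 35.09 to 48.63 and 15.75 to 53.46 FPKM. The authors' deposited table calls Alox5ap higher, at a mean under 1 FPKM.

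Over these 8 lists, which hold 111 genes besides the 10 and of which 60 were tested, none was called higher or lower by limma (smallest adjusted p = 0.0526, for Sik1). Without adjustment, 14 had a p under 0.05 as higher (23.3%, beside 10.2% of all tested genes) and 3 as lower. In either direction 20.3% of all tested genes had such a p. The groups lay apart with si-circCpsf6 higher in 15 of the 60 (25%, beside 12.8% of all tested genes) and lower in 3 (beside 14%). Their median log2 fold change was 0.14, beside -0.02 over all tested genes. Of the 14, 6 belonged to the list of arachidonate release, recapture and synthesis, as did 7 of the 15 with groups apart as higher. The lists were chosen with earlier results of these data known, so these shares are a description. The deposited annotation names 79 genes of arachidonic acid metabolism, 6 of them among the 10. Of the other 73, 9 were tested and none was called by limma, with 3 at an unadjusted p under 0.05, all higher (beside the same 10.2%). Pla2g2e, a secreted phospholipase A2, had the smallest p of these and is called higher in the authors' deposited table. It read 1.66, 2.74 and 0.23 FPKM in si-NC, against 5.47, 6.23 and 6.04 FPKM in si-circCpsf6 (log2 fold change 1.58 ± 0.37, SE; limma adjusted p = 0.0768).

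**Figure D3:**
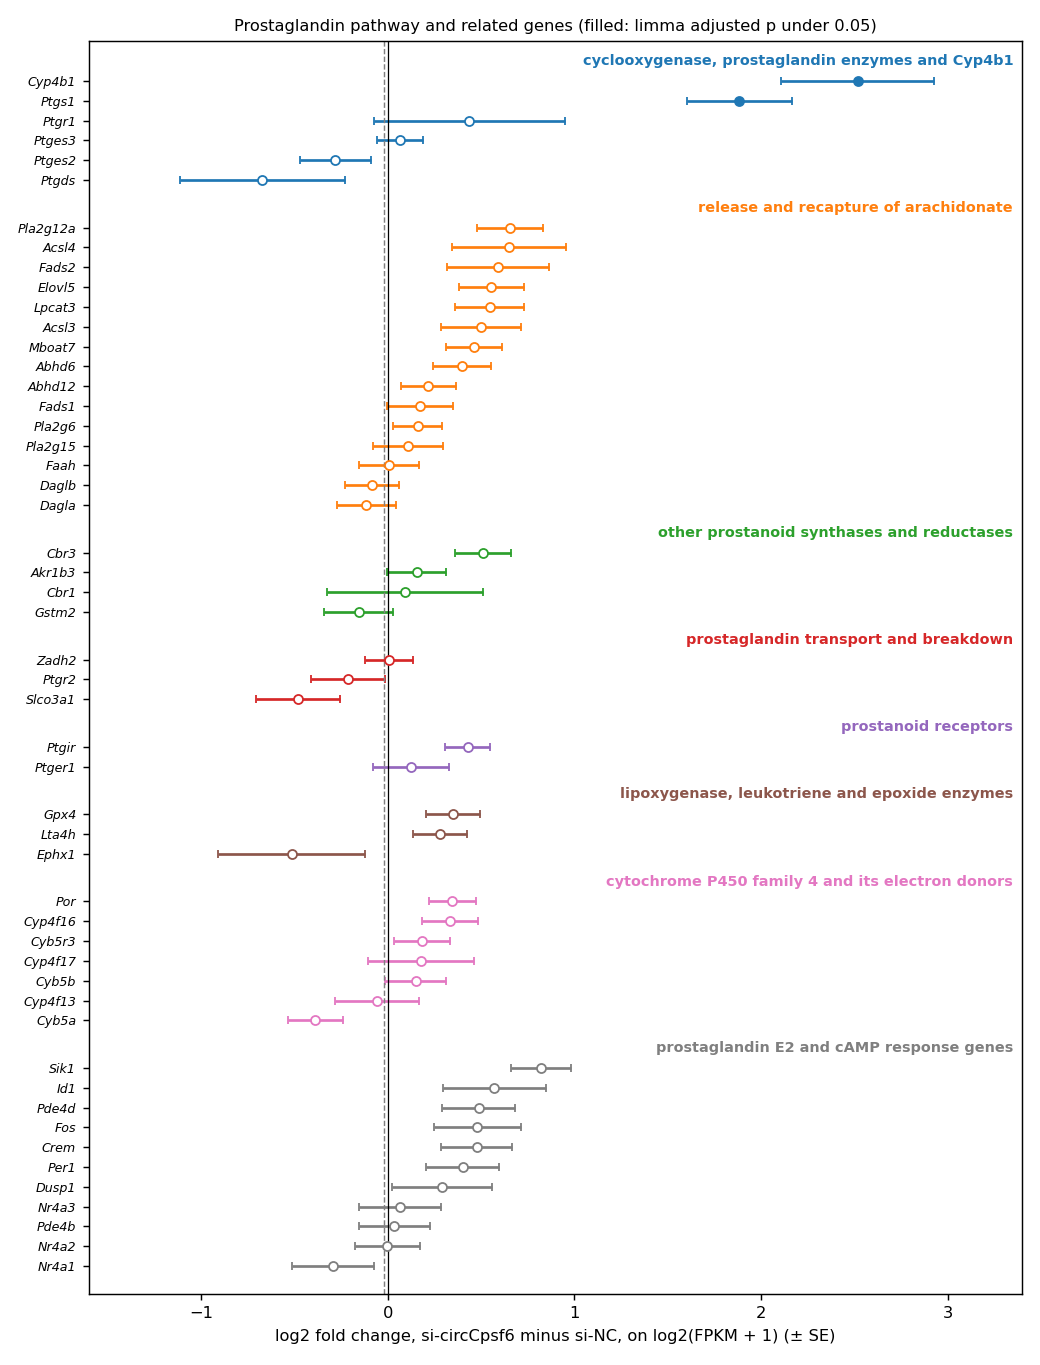
Log2 fold change (si-circCpsf6 minus si-NC, on log2(FPKM + 1), ± SE) of the tested genes of the 10 and of 7 of the lists, grouped by role, with filled points for a limma adjusted p under 0.05 and a dashed line at the median of all tested genes (-0.02). Cyp4b1 (2.52) and Ptgs1 (1.88), both chosen also for these rises, lie to the right of every other gene shown, and no other point is filled.

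The genes most like Ptgs1 and Cyp4b1 over the 6 libraries were found by Pearson correlation of log2(FPKM + 1). The 6 libraries fall into 2 groups, so that any gene that differs between the groups correlates with both. For Ptgs1 they included Picalm, a clathrin adaptor gene (r = 0.996), and the homeobox gene Six4 (0.995). For Cyp4b1 they were the matrix gene Fbln2 (0.997), Abhd8 (0.997) and Cmtm4 (0.996). In all, 499 tested genes reached r = 0.9 with Ptgs1 and 439 with Cyp4b1, and the 2 genes themselves had r = 0.87. Fbln2, an extracellular matrix protein, read 32.49, 22.6 and 23.04 FPKM in si-NC, against 62.97, 44.5 and 48.76 FPKM in si-circCpsf6, with replicate 1 the highest in each group as for Cyp4b1. Within si-NC the 2 genes did not run together: Ptgs1 was highest in replicate 2, where Cyp4b1 was lowest, and the ratio of Cyp4b1 to Ptgs1 was 1.04, 0.250 and 0.855 in replicates 1 to 3. In si-circCpsf6 it was 1.39, 0.707 and 1.06, again lowest in replicate 2.

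The authors' deposited table gives the same directions for the 6 tested genes. Its ratios equal those of the group mean FPKM used here, so the shared directions are no separate check. The deposited table lists a ratio of si-circCpsf6 to si-NC of 3.81 for Ptgs1 and 6.31 for Cyp4b1 and calls these 2 significant. The q-values of the other 8 genes in the authors' deposited table were 0.49 (Ptgr1) or more.

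**Figure D4:**
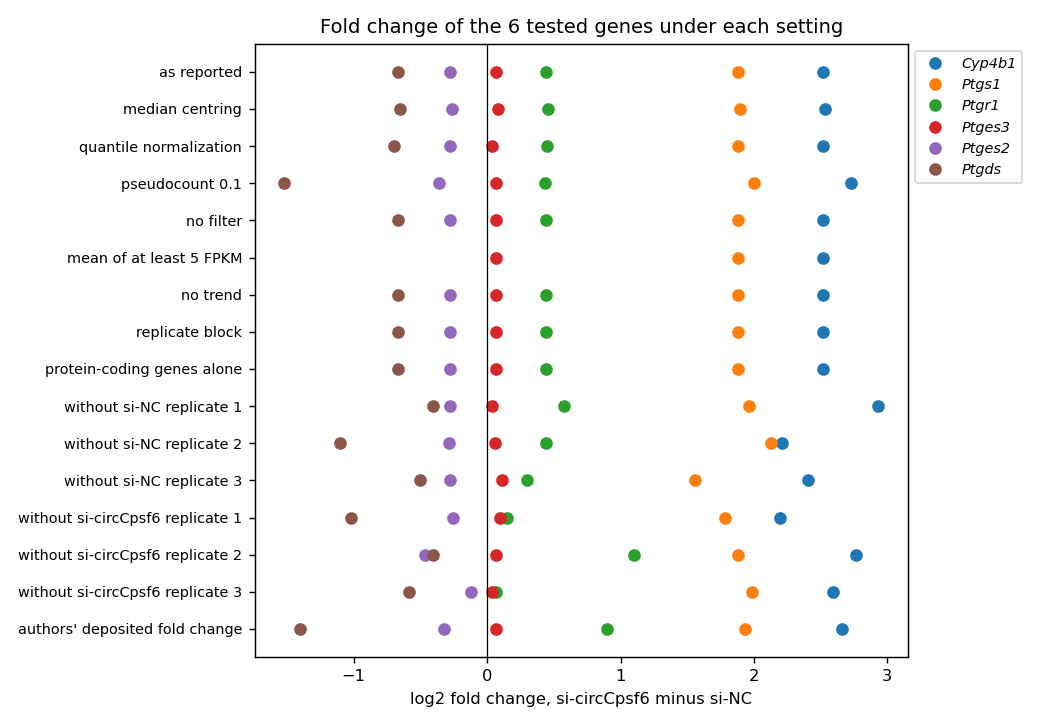
Log2 fold change (horizontal axis, si-circCpsf6 minus si-NC) of the 6 tested genes under each setting (vertical axis), from the fit as reported to the authors' deposited value. Every gene keeps its sign throughout, Ptgs1 and Cyp4b1 stay at 1.56 or more, and Ptgr1 moves the most with the library left out, from 0.07 to 1.10. The deposited value rests on the same FPKM and is no separate check of sign.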

How the data were processed

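RNA of 6 Neuro2A libraries was profiled. The authors deposited 1 table with FPKM per gene and library, rounded to 2 decimals, per the file headers. Per the file headers, the authors' fold change (a ratio), its log2, a p-value and a q-value stand beside these. The sources used here do not name the program behind FPKM, the test or the strand setting. Bowtie 0.12.2, mm8 and mm9 appear, without a role, in the submitters' processing notes. Depth is unknown, so no interval for counting error is given.

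Groups and replicate numbers came from the titles. The 12974 genes that averaged 1 FPKM or more were fitted on log2(FPKM + 1) in limma 3.58.1 (R 4.3.3). The model had a term for group alone, a trend of the variance with level and Benjamini-Hochberg adjustment over all of them at 0.05. This scale understates changes of low genes. With 3 against 3 libraries an exact permutation test cannot go below p = 0.1, so none was run. Tested on simulated data in which 200 of 12974 genes differed, the fit recovered 67.9% of log2 changes of 1 and 96.8% of log2 changes of 2, and 5.78% of its calls were false.

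The genes, lists and the heptamer were chosen with earlier results of these data known. Named are the 10 genes, up to 3 genes per list with the smallest p, receptors at 1 FPKM or more, the 3 most correlated genes of Ptgs1 and Cyp4b1 (1 is not reported here), overlapping genes and copies, and the highest marker per list. Others are single cases chosen after their values were seen (such as Chga, Mycn, Col1a1, Dcn, Tek, Ptgis, Hpgds, Tbxas1, Slco2a1, Mgll, Alox5ap, Cyp4f40 and genes listed at 0). Positions and transcripts are from GENCODE M21 (GRCm38), and promoter windows are from RefSeq (GRCm38.p6), where all 10 genes matched. Figures used matplotlib 3.10.9. As alternatives, each library was left out, a replicate block was added, the filter was dropped or raised to 5 FPKM, the pseudocount was set to 0.1, the trend was dropped, values were centred on their median or quantile normalized, protein-coding genes were fitted alone, and the authors' calls were used.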

Additional observations from a re-analysis of the deposited data

How the results depend on the processing

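Counts of called genes depended on the setting, while the directions of the 6 tested genes did not turn. Against 117 genes called higher and 102 lower, no filter gave 4 and 9, protein-coding genes alone 245 and 192, and the authors' deposited calls 607 and 347. Leaving out 1 library gave 1 to 43 higher and 2 to 44 lower, the fewest without si-NC replicate 3. Ptgs1 (log2 fold change 1.88) and Cyp4b1 (2.52) were no longer called with no filter, at the same fold changes, nor with any library left out (1.56 to 2.13 and 2.20 to 2.93). The smaller number of libraries is part of that setting. With the replicate number as a block, 6 genes were called higher and 5 lower; Ptgs1 was then not called (1.88) and Cyp4b1 still was. Same-numbered libraries deviated together with r = 0.103, 0.129 and 0.084, each library doing so most with its own number, a hint from the data and not the design. Of the 60 tested pathway genes, 1 (Sik1) was called higher with median centring, with quantile normalization, with a mean of at least 5 FPKM and with protein-coding genes alone. The authors' deposited calls hold 2 higher (Alox5ap and Cyp4f40) and 1 lower (Mgll). The other 4 of the 10 genes were under the filter, and Ptges2, Ptgr1 and Ptgds were not fitted at a minimum of 5 FPKM. Low values have an unknown counting error, so changes in Ptgs2, Pla2g4a, Hpgd and Ptges were not detectable.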

Other observations

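Ptgr1 stood out by library and not by group. A few other detoxifying enzymes shared that pattern, while more genes of the list they come from correlated negatively with Ptgr1. In si-circCpsf6 replicate 2, Gsta4, a glutathione transferase that conjugates lipid aldehydes, read 0.32 FPKM beside 2.6 and 2.41 FPKM in replicates 1 and 3 of that group. Cbr1, a carbonyl reductase that acts on prostaglandin E2, read 2.7 FPKM there beside 7.47 and 12.52 FPKM, and Akr1b8 6.91 FPKM beside 11.31 and 16.72 FPKM. Over the 6 libraries their log2(FPKM + 1) correlated with that of Ptgr1 at r = 0.975, 0.903 and 0.859. These genes come from a list of NRF2 target enzymes drawn up after the values of Ptgr1 had been seen, and are given as a description with no test. Of the 14 other tested genes of that list, 5 had their lowest value of all 6 libraries in si-circCpsf6 replicate 2, beside 14.9% of all tested genes. No more than these 5 were lowest there among the si-circCpsf6 libraries alone, beside 29.9%, and 2 lay under 0.5 times each of the other si-circCpsf6 values, beside 2.20%. Srxn1, which repairs oxidised peroxiredoxins, went the other way, at 12.02 FPKM in replicate 2 beside 3.42 and 8.33 FPKM. Its r with Ptgr1 was -0.631. Gclc (-0.718), Gclm (-0.524), Nqo1 (-0.471), Slc7a11 (-0.467), G6pdx (-0.461), Txnrd1 (-0.445), Gsr (-0.433) and Hmox1 (-0.308) also had a negative r. That of Gstm1 (0.501) and Ephx1 (0.482) was positive.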
